A study of Danio rerio with 33 samples.

Results

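The 5 genes described here are the cytochrome P450 family 1 genes of zebrafish, taken as the rows of the deposited gene table named cyp1a, cyp1b1, cyp1c1, cyp1c2 and cyp1d1. They are 5 of the 25432 protein-coding genes in the table. All 5 had enough counts to be tested, and 22124 genes in all were tested. Their Ensembl identifiers are ENSDARG00000098315 (cyp1a), ENSDARG00000068934 (cyp1b1), ENSDARG00000101195 (cyp1c1), ENSDARG00000101789 (cyp1c2) and ENSDARG00000035569 (cyp1d1).

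CYP1 enzymes are haem monooxygenases of the endoplasmic reticulum that oxidise flat aromatic molecules, among them the polycyclic aromatic hydrocarbons found on combustion particles. Such molecules bind the aryl hydrocarbon receptor (AhR), which then pairs with ARNT and binds response elements near its target genes, and CYP1 genes are its best known targets. In fish embryos cyp1a serves as the usual marker of exposure to these compounds. cyp1b1 also oxidises oestradiol, and cyp1c1 and cyp1c2 form a subfamily that fish have and mammals lack. cyp1d1 is an intact gene in zebrafish and a pseudogene in humans, and in zebrafish it is known as a member that responds little to AhR agonists. The oxidised products are passed on to conjugating enzymes such as glucuronosyltransferases and sulfotransferases.

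Wild-type embryos (genotype wt) spent 24 h, between 96 and 120 hours post fertilisation (hpf), in organic extracts of air particle filters or in control solutions. RNA was then isolated from pools of 10. Each of the 33 libraries is 1 pool, in 11 groups of 3. The library numbers begin with 35 (15 libraries, called the first series), 37 (14) or 38 (4), and the last 2 form the second round. The first series held vehicle, mock filter, harbour (filters 32, 36 and 38), traffic road (filters 26, 28 and 30) and airport (filters 44, 48 and 54), with 1 pool of each filter. The second round held vehicle, road filter 26, road filter 28, harbour filter 36, harbour filter 38 and subway filter 80, with 3 pools of each. The subway filter was from Valencia, and those of harbour, road and airport from Barcelona. Filter 54 was from the warm season, and the other Barcelona filters were from the cold season. The subway pools and 1 pool of harbour filter 36 are of series 38, which holds no vehicle pool, so they were set against the vehicle pools of series 37.

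Pools of 1 filter are repeats of the exposure to extract of that filter, and whether they shared 1 extract preparation is not known. In the harbour, road and airport groups of the first series each pool is a different filter. The fit shares its estimate of spread over all 11 groups, so p-values mix the spread between repeat pools with that between filters. A p-value of a site therefore does not measure the spread between its own filters alone. The sources used here do not say whether pools came from separate clutches, and a further number in the titles that differs between the rounds is not explained there. Whether dose and extract preparation were the same in both rounds is therefore not known. In the titles, mock filter pools 2 and 3 share a number that mock filter pool 1 does not have. The vehicle pools of the first series carry different numbers, and those of the second round the same one. What these numbers mark is not stated, so control groups may be repeats at different levels. Each library held between 18448718 and 51854033 counts. The uniquely mapped share of reads was 71.66% to 77.08% in the first series, 78.88% to 79.5% in series 37 and 78.74% to 79.31% in series 38. Duplicate read pairs made up 30.18% to 31.08% in mock filter pool 1, vehicle pools 2 and 3 and the first-series pool of road filter 28. They made up 17.35% to 23.44% in the other first-series pools. Their part in the cyp1 results was not tested. Vehicle pool 3 and mock filter pools 2 and 3 of the first series stood apart by interferon response genes. The 5 genes of that list summed to 104 CPM, a count scaled to library size, in vehicle pool 3 and to 81.6 and 91.6 CPM in mock filter pools 2 and 3, against 2.43 to 36.9 CPM in the other pools. None of the measured markers of liver, intestine, endothelium, heart, skin, muscle, brain, eye, pancreas and red cells was at 0 over all pools together. Single markers were not checked pool by pool. In RNA from whole embryos, fewer cells of a type and less RNA per cell cannot be told apart.

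The level of each gene in unexposed embryos came first. Levels are given as CPM scaled by TMM, a scale on which pools can be compared for 1 gene. Gene lengths were not used here, so levels of different genes are not compared. cyp1a stood at 28.94, 36.5 and 36.9 CPM in the first vehicle pools and at 29.8, 29.7 and 39.2 CPM in those of the second round. The 2 vehicle groups overlapped, with means of 34.1 ± 4.49 and 32.9 ± 5.45 CPM (SD, n = 3 each). cyp1b1 was low in vehicle, at 2.63, 2.79 and 3.27 CPM in the first series and 3.62, 3.96 and 3.63 CPM in the second round. cyp1c1 had 14.6, 15.6 and 14.0 CPM in the first and 12.99, 14.9 and 14.9 CPM in the second.

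cyp1c2 varied in controls. It had 1.72, 2.09 and 3.22 CPM in the first vehicle pools, where the highest value was that of vehicle pool 3, and 3.33, 3.3 and 3.03 CPM in the second round. The counts of cyp1c1 and cyp1c2 are uncertain as single genes. The genes are close copies, and no gene lies between them in the RefSeq annotation of assembly GRCz12tu. Reads could have been split between them, since no source used here names the counting program.

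Mock filter extract was set against vehicle, to see what the filter material itself adds. None of the 5 genes changed, by edgeR's quasi-likelihood test with Benjamini-Hochberg adjustment over all genes tested and a threshold of 0.05, which holds for every call below. At an unadjusted p under 0.05 there was 1, cyp1c2, which ranked 1400 by p among the 22124 genes tested. In this comparison 0.0316% of all genes tested passed in either direction. cyp1a stood at 31.7, 34.3 and 36.6 CPM with mock filter extract, inside the range of vehicle, with a log2 fold change of 0.00 ± 0.29 (SE). cyp1c2 had 5.44, 2.82 and 2.36 CPM, of which only the first pool lay above vehicle (log2 fold change 0.59 ± 0.24, adjusted p = 0.298 in edgeR). Without vehicle pool 3 the cyp1c2 difference was 0.89 on the log2 scale and passed (adjusted p = 0.0372 in edgeR), and without mock filter pool 1 it was 0.14 and did not.

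Extracts of harbour filters raised 4 of the 5 genes in the first series, whose harbour, road and airport comparisons share the same vehicle pools. Against vehicle, cyp1a rose 5.65-fold, cyp1b1 4.95-fold, cyp1c1 2.81-fold and cyp1c2 2.34-fold, while cyp1d1 did not pass the test. Of all genes tested, 2.6% rose in this comparison. cyp1a reached 138 CPM with filter 32, 247 CPM with filter 36 and 194 CPM with filter 38. All 3 harbour pools lay far above the highest vehicle pool (log2 fold change 2.50 ± 0.30, adjusted p = 2.51e-05 in edgeR). Here and below, pools said to lie apart without a share over all genes tested are a description only.

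cyp1b1 had 13.6, 17.1 and 12.6 CPM with harbour filters 32, 36 and 38, each above every vehicle and mock filter pool (log2 fold change 2.31 ± 0.23, adjusted p = 7.5e-07 in edgeR). cyp1c1 had 36.6, 45.0 and 42.6 CPM with the same filters (log2 fold change 1.49 ± 0.14, adjusted p = 2.51e-07 in edgeR). Filter 36 gave the highest level of the 3 harbour filters in each of these genes. cyp1c2 had 5.47, 6.05 and 5.05 CPM (log2 fold change 1.23 ± 0.23, adjusted p = 0.00354 in edgeR). In a fit of the harbour and vehicle pools alone the cyp1c2 call was lost (adjusted p = 0.21 in edgeR), and the other 3 calls were kept.

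Against mock filter extract, cyp1a, cyp1b1 and cyp1c1 rose with harbour extracts, by 2.50, 2.41 and 1.38 on the log2 scale, where 2.17% of all genes tested rose. The cyp1c2 difference was 0.64 ± 0.22 and did not pass (adjusted p = 0.0983 in edgeR), and the groups overlapped through mock filter pool 1. Without that pool it was 1.09 and passed (adjusted p = 0.00236 in edgeR). Without vehicle pool 3 and mock filter pools 2 and 3, which leaves mock filter pool 1 alone, the cyp1c2 difference was 0.02.

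Road extracts raised 3 of the 5 genes in the first series: cyp1a 6.43-fold, cyp1b1 4.76-fold and cyp1c1 2.34-fold. Only 0.122% of all genes tested rose in this comparison. The road filters were spread more widely than the harbour filters. cyp1a stood at 378 CPM with filter 26, 198 CPM with filter 28 and 82.8 CPM with filter 30. All 3 lay above every vehicle pool (log2 fold change 2.69 ± 0.30, adjusted p = 8.47e-06 in edgeR). cyp1b1 kept the same order, with 20.3, 13.8 and 7.42 CPM (log2 fold change 2.25 ± 0.23, adjusted p = 2.41e-06 in edgeR).

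The road filters were closer together in cyp1c1, which had 38.5, 36.9 and 28.0 CPM with filters 26, 28 and 30 (log2 fold change 1.23 ± 0.14, adjusted p = 8.34e-06 in edgeR). cyp1c2 had 4.10, 3.06 and 5.19 CPM, overlapping vehicle, and did not pass (log2 fold change 0.80 ± 0.24, adjusted p = 0.239 in edgeR). For cyp1c2 the order of the filters differed from that of the others, with filter 30 highest. In a fit of the road and vehicle pools alone, where the spread between the road filters is not shared with other groups, none of the 5 passed. The adjusted p was then 0.298 for cyp1a, 0.166 for cyp1b1 and 0.121 for cyp1c1, at nearly the same fold changes.

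The pools with the highest cyp1a, those of road filter 26 and harbour filter 36, were also those with the fewest uniquely mapped reads, 72.31% and 71.66%. Without road filter 26 the cyp1a change was 2.04 (adjusted p = 5.35e-05 in edgeR), and without harbour filter 36 it was 2.28 (adjusted p = 0.000313 in edgeR). Against mock filter extract, road extracts raised cyp1a by 2.68, cyp1b1 by 2.35 and cyp1c1 by 1.12 on the log2 scale, where 0.57% of all genes tested rose. In a fit of these 6 pools alone none of the 3 passed (adjusted p of 0.0701 to 0.0853 in edgeR). Without the 3 pools that stood apart by interferon genes, the cyp1a change against vehicle was 2.56 with harbour, 2.75 with road and 0.46 with airport extracts. That of cyp1c2 was 1.53, 1.09 and 1.44, and with road extracts it then passed (adjusted p = 0.0116 in edgeR). Between harbour and road, 0 of the 5 passed in edgeR, where 3.32% of all genes tested passed in either direction. At an unadjusted p under 0.05 there were 0 as well. The smallest p of the 5, that of cyp1c1, ranked 4347 among the 22124 genes tested. The cyp1a difference, harbour minus road, was -0.19 with a 95% interval of -0.76 to 0.39 on the log2 scale.

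**Figure D1:**
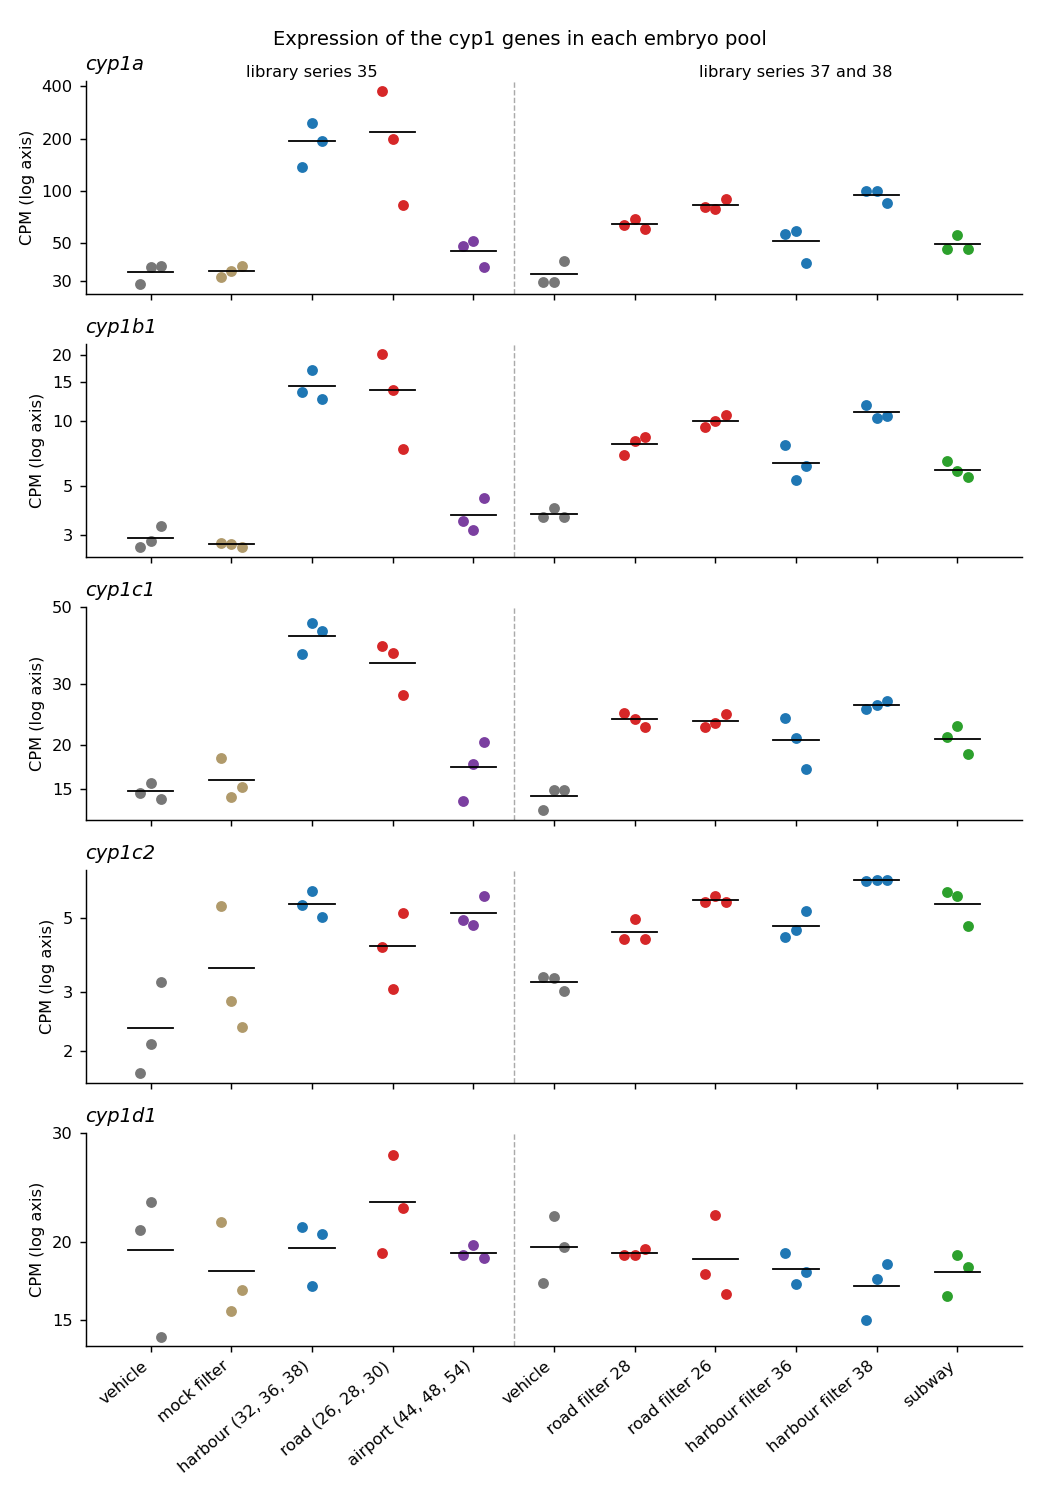
Level of each cyp1 gene (CPM scaled by TMM, log axis) in every pool, grouped by exposure and round, 1 point for each pool. cyp1a reaches 378 CPM with road filter 26 and 247 CPM with harbour filter 36 in the first series, whereas cyp1d1 stays between 14.1 and 27.7 CPM in all 33 pools.

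Airport extracts gave another picture. They raised 1 of the 5 genes, cyp1c2, in a comparison where 15.2% of all genes tested rose, so the count of members was near that background. cyp1a stood at 48.07 CPM with filter 44, 51.0 CPM with filter 48 and 36.5 CPM with filter 54. The warm-season filter 54 lay within vehicle and the others above it (log2 fold change 0.40 ± 0.29, 95% interval -0.20 to 1.00, adjusted p = 0.323 in edgeR). cyp1b1 had 3.48, 3.15 and 4.44 CPM and cyp1c1 13.8, 17.7 and 20.5 CPM, and both overlapped vehicle. Their log2 fold changes were 0.37 ± 0.24 and 0.24 ± 0.14, with adjusted p of 0.249 and 0.186 in edgeR. Without filter 44 the cyp1c1 difference was 0.38 and passed (adjusted p = 0.0462 in edgeR).

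cyp1c2 had 4.93, 4.75 and 5.82 CPM with airport filters 44, 48 and 54, all above the vehicle pools (log2 fold change 1.14 ± 0.23, adjusted p = 0.000432 in edgeR). Against mock filter extract 0 of the 5 passed in edgeR, where 14.4% of all genes tested rose. At an unadjusted p under 0.05 there was 1, cyp1c2, but so small a p was common in this comparison. By p, cyp1c2 ranked only 6365 among the 22124 genes tested. Its difference was 0.55 (adjusted p = 0.0625 in edgeR) and reached 1.01 without mock filter pool 1 (adjusted p = 0.000792 in edgeR). Without vehicle pool 3 and mock filter pools 2 and 3, which leaves mock filter pool 1 alone, it was -0.06.

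Tested directly, airport pools had less cyp1a, cyp1b1 and cyp1c1 than harbour or road pools. Against harbour, the log2 differences were -2.10 ± 0.29 for cyp1a, -1.94 ± 0.22 for cyp1b1 and -1.25 ± 0.13 for cyp1c1, the largest adjusted p being 7.07e-06 in edgeR. In this comparison 14.6% of all genes tested were lower. Against road the differences were -2.29 ± 0.30, -1.88 ± 0.22 and -0.98 ± 0.13, with adjusted p up to 6.78e-06 in edgeR, and 12.1% of all genes tested were lower. No airport pool reached the lowest harbour or road pool in these 3 genes. How many of all genes tested were likewise apart is not given here, so this is a description only. cyp1c2 did not differ between airport and harbour beyond the spread of the pools (-0.09, 95% interval -0.53 to 0.36), nor between airport and road (0.35, -0.10 to 0.80).

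In the second round each filter had 3 pools, so that the spread between pools of 1 filter could be seen. Road filter 26 and harbour filter 38 each raised 4 of the 5 genes, in comparisons where 11.8% and 10.5% of all genes tested rose. With road filter 26, cyp1a had 80.2, 78.2 and 89.1 CPM, cyp1b1 9.32, 9.99 and 10.6 CPM, and cyp1c1 22.6, 23.2 and 24.6 CPM. Pools of this filter were close to each other, and each lay above every vehicle pool. The share of all genes tested that did so is not given here. The fold changes were 2.51 for cyp1a (log2 1.33 ± 0.29, adjusted p = 0.00129 in edgeR) and 2.67 for cyp1b1 (1.42 ± 0.22, 2.91e-05). They were 1.64 for cyp1c1 (0.72 ± 0.13, adjusted p = 0.000256 in edgeR) and 1.76 for cyp1c2 (0.82 ± 0.22, 0.00677), the last with 5.60, 5.82 and 5.58 CPM.

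Harbour filter 38 gave the highest levels of the second round in cyp1a, cyp1b1, cyp1c1 and cyp1c2. cyp1a had 99.2, 99.7 and 84.8 CPM (log2 fold change 1.52 ± 0.29, adjusted p = 0.000436 in edgeR). cyp1b1 had 11.9, 10.3 and 10.6 CPM (1.54 ± 0.22, adjusted p = 1.92e-05 in edgeR). cyp1c1 had 25.4, 26.1 and 26.77 CPM (0.87 ± 0.13, adjusted p = 4.98e-05 in edgeR). In each case the lowest exposed pool stood above the highest vehicle pool, and the share of all genes tested for which this held is not given here. cyp1c2 was nearly even over the pools at 6.48, 6.51 and 6.52 CPM (1.01 ± 0.22, adjusted p = 0.00132 in edgeR).

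Road filter 28 raised cyp1c1 alone past the threshold, where 0.0542% of all genes tested rose. cyp1c1 had 24.8, 23.8 and 22.6 CPM (log2 fold change 0.74 ± 0.13, adjusted p = 0.0179 in edgeR), and this call was lost when any 1 of the 6 pools was left out. cyp1a had 63.3, 68.3 and 60.4 CPM, each above every vehicle pool, with a log2 difference of 0.96 ± 0.29 (adjusted p = 0.874 in edgeR, unadjusted 0.00244). cyp1b1 had 6.93, 8.06 and 8.40 CPM, likewise apart from vehicle (1.06 ± 0.22, adjusted p = 0.0583 in edgeR). cyp1c2 had 4.34, 4.97 and 4.34 CPM. The groups thus did not overlap in 4 of the 5 genes, which was so for 7.2% of all genes tested. In a fit of these 6 pools alone cyp1a, cyp1b1 and cyp1c1 passed. No alternative fit of this comparison called more than 45 genes in all, against 12 in the main fit.

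With harbour filter 36, 0 of the 5 passed in edgeR, where 0.0407% of all genes tested rose. At an unadjusted p under 0.05 there were 4, and the share of all genes at that threshold is not given here. By p these 4 ranked 31 (cyp1c1), 62 (cyp1b1), 429 (cyp1c2) and 824 (cyp1a) among the 22124 genes tested. cyp1a had 56.6 and 58.6 CPM in the series 37 pools and 38.5 CPM in the series 38 pool, the last below the highest vehicle pool (log2 difference 0.64 ± 0.29, adjusted p = 0.921 in edgeR). Without the series 38 pool it was 0.81. cyp1b1 had 7.70, 5.37 and 6.20 CPM and cyp1c1 24.0, 21.0 and 17.1 CPM, all above vehicle. Their differences were 0.78 ± 0.22 and 0.54 ± 0.13, with adjusted p of 0.462 and 0.274 in edgeR. cyp1c2 had 4.39, 4.61 and 5.24 CPM. Harbour filter 36 and vehicle did not overlap in 3 of the 5 genes, which was so for 5.55% of all genes tested.

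Subway extract raised cyp1c1 and cyp1c2, 2 of the 5 genes, where 2.3% of all genes tested rose. cyp1c1 had 21.2, 22.7 and 18.9 CPM (log2 fold change 0.55 ± 0.13, adjusted p = 0.0172 in edgeR) and cyp1c2 had 5.99, 5.83 and 4.72 CPM (0.78 ± 0.22, 0.0388). The cyp1c2 call was lost when any 1 pool was left out, and the cyp1c1 call was kept in 2 of the 6 such fits. cyp1a had 46.1, 55.6 and 45.9 CPM (0.58 ± 0.29, adjusted p = 0.288 in edgeR) and cyp1b1 6.51, 5.87 and 5.50 CPM (0.67 ± 0.22, 0.0779). All subway pools lay above vehicle in these 4 genes, as in 16.8% of all genes tested, and in a fit of the 6 pools alone the 4 passed. The number of all genes called in that fit is not given here. Over the alternative fits of this comparison it ran up to 3249, against 968 in the main fit. Subway pools are series 38 and their vehicle is series 37, so exposure and series cannot be told apart here.

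**Figure D2:**
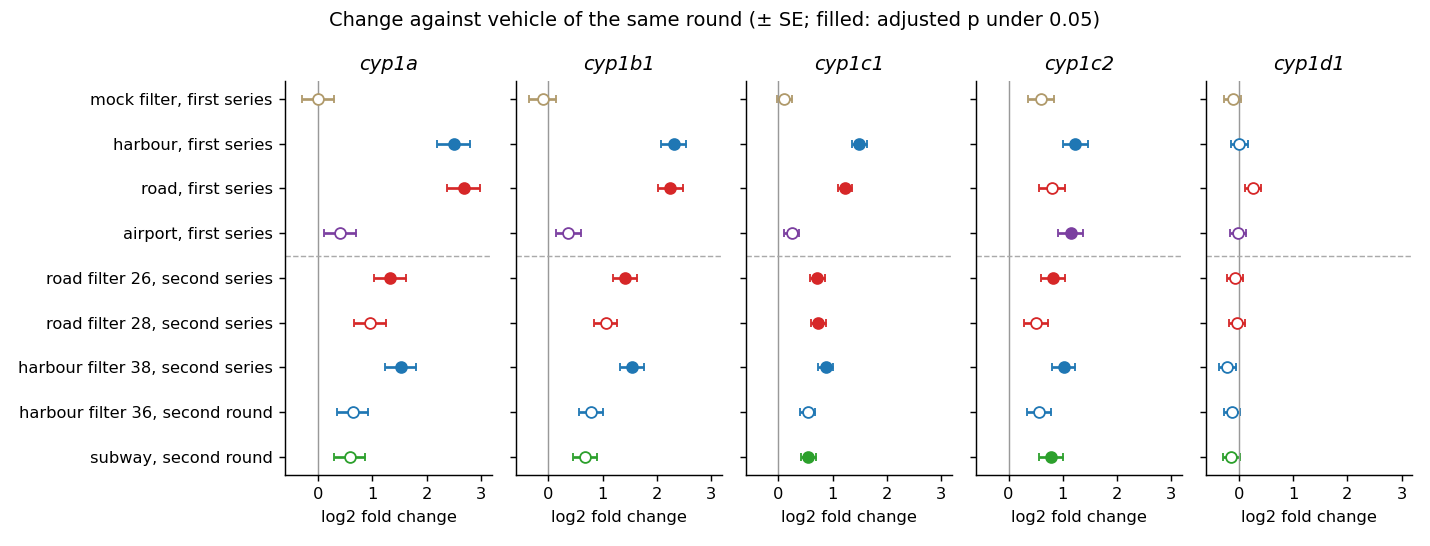
Log2 fold change of each cyp1 gene against the vehicle pools of the same round, with its SE, for mock filter, the sites and the single filters, where filled points passed the test. cyp1a is highest with road and harbour in the first series (2.69 and 2.50) and 1.33 and 1.52 with road filter 26 and harbour filter 38 in the second round, and cyp1d1 has no filled point.

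cyp1d1 did not pass in any of the 18 comparisons. In vehicle it had 20.9, 23.3 and 14.1 CPM in the first series and 17.2, 22.1 and 19.6 CPM in the second round. Its levels ran from 14.1 to 27.7 CPM over all 33 pools, a ratio of 1.96 between the highest and the lowest pool. The same ratio was 13.1 for cyp1a, 7.72 for cyp1b1, 3.47 for cyp1c1 and 3.80 for cyp1c2. The highest cyp1d1 level was that of road filter 28 in the first series, and the lowest that of vehicle pool 3. With harbour extracts its log2 difference from vehicle was 0.01 in the first series and -0.21 with filter 38 in the second round (95% interval -0.52 to 0.10).

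By their mean cyp1a level the groups ran from road (220 CPM) and harbour (193 CPM) in the first series through harbour filter 38 (94.6 CPM), road filter 26 (82.5 CPM), road filter 28 (64.0 CPM), harbour filter 36 (51.2 CPM) and subway (49.2 CPM) to airport (45.2 CPM). Mock filter (34.2 CPM) and both vehicle groups came last. Neighbours in this order overlapped pool by pool, except that harbour of the first series lay above harbour filter 38, road filter 26 above road filter 28, and road filter 28 above harbour filter 36. Within the second round the test found cyp1a and cyp1b1 lower with harbour filter 36 than with harbour filter 38. The differences were -0.88 ± 0.29 (adjusted p = 0.0369 in edgeR) and -0.76 ± 0.21 (adjusted p = 0.014 in edgeR), where 7.83% of all genes tested were lower.

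The cyp1a call between these 2 harbour filters was lost when any 1 of the 6 pools was left out, and the cyp1b1 call was kept in 3 of the 6 such fits. Without the series 38 pool the differences were -0.72 and -0.73 and neither passed. Between road filters 26 and 28, 0 of the 5 passed in edgeR, where 17.3% of all genes tested passed in either direction. At an unadjusted p under 0.05 there were 0 as well. The smallest p of the 5, that of cyp1b1, ranked 7801 among the 22124 genes tested. In a fit of these 6 pools alone cyp1a and cyp1b1 passed, at 0.39 and 0.38 higher with filter 26 on the log2 scale (adjusted p of 0.00179 and 0.0207 in edgeR). The number of all genes called in that fit is not given here. Over the alternative fits it ran up to 6380, against 3829 in the main fit. The pools of filter 26 were higher without overlap in cyp1a, cyp1b1 and cyp1c2, as were those of 20.6% of all genes tested. Between road filter 26 and harbour filter 38, 0 of the 5 passed, where 0.0136% of all genes tested passed. At an unadjusted p under 0.05 there were 0 as well, and the smallest p of the 5, that of cyp1c1, ranked 4505.

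Filters 26, 28, 36 and 38 were each used in both rounds, with 1 pool in the first series and 3 in the second round. The change of each gene against the vehicle of its own round could thus be compared between rounds for 1 filter. The single pool of the first series was taken to vary like the replicated groups. No spread between first-series pools of 1 filter was measured, so the SE and p-values of this comparison rest on that assumption. Over all genes with enough counts, pairs of first-series vehicle pools had a chi-square per degree of freedom of 17.82 to 38.58. Pairs of mock filter pools had 5 to 19.71, and pairs of second-round vehicle pools 6.16 to 11.25. In cyp1a both vehicle groups spread alike (SD 4.49 and 5.45 CPM). If first-series pools of 1 filter vary more, these SE and p-values are too small. The cyp1a change was smaller in the second round with every one of the 4 filters. With road filter 26 its change fell from 3.46 to 1.35 on the log2 scale, a difference of -2.11 ± 0.22 (adjusted p = 3.68e-05 in edgeR), where 3.76% of all genes tested differed. With road filter 28 it was 2.54 and then 0.96, a difference of -1.58 ± 0.23 (adjusted p = 0.0106 in edgeR), where 0.00883% of all genes tested differed.

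With harbour filter 36 the cyp1a change was 2.86 in the first series and 0.65 in the second round (difference -2.21 ± 0.23, adjusted p = 3.43e-05 in edgeR), where 0.0574% of all genes tested differed. With harbour filter 38 it was 2.49 and 1.53 (difference -0.96 ± 0.23, adjusted p = 0.00641 in edgeR), where 14.9% of all genes tested differed. Among the first-series road pools of different filters cyp1a ran from 82.8 to 378 CPM, whereas the 3 second-round pools of any 1 filter lay closer together.

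The cyp1b1 change was likewise smaller in the second round with filter 26 (2.79 and then 1.44, difference -1.35 ± 0.22, adjusted p = 0.00112 in edgeR) and with filter 36 (2.55 and then 0.79, difference -1.76 ± 0.22, adjusted p = 0.000482 in edgeR). Its differences for filters 28 and 38 were -1.19 and -0.54 and did not pass. For cyp1b1 the vehicle pools themselves were higher in the second round, without overlap (mean 3.735 CPM against 2.899 CPM in the first series). The part of this shift in the cyp1b1 differences was not tested. The cyp1c1 change was smaller with filter 36 (difference -1.07 ± 0.18, adjusted p = 0.0344 in edgeR) and with filter 38 (-0.63 ± 0.19, adjusted p = 0.024 in edgeR). With road filters 26 and 28 its differences were about as large as with filter 38, at -0.63 ± 0.19 and -0.59 ± 0.18. They did not pass (adjusted p of 0.057 and 0.998 in edgeR), so the calls do not set harbour filters apart from road filters. Without vehicle pool 5 the cyp1c1 call for filter 36 was lost (adjusted p = 0.0912 in edgeR). cyp1c2 and cyp1d1 did not differ past the threshold for any filter. The cyp1c2 change for filter 26 was 0.79 in the first series and 0.84 in the second round, a difference of 0.06 with a 95% interval of -0.77 to 0.88. Sequencing round and vehicle group changed between the rounds, and whether the dose or the extract preparation did is not known, so these cannot be told apart.

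**Figure D3:**
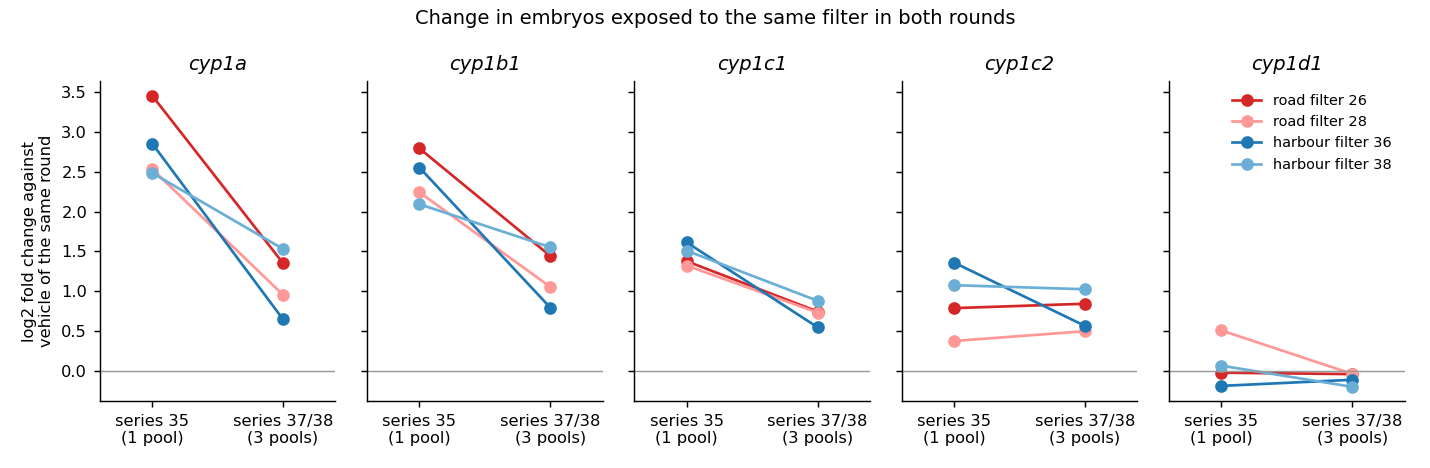
Log2 fold change of each cyp1 gene against vehicle of the same round for the 4 filters used in both rounds, with 1 pool in series 35 joined to the mean of 3 pools in series 37 and 38. The cyp1a lines fall for every filter, from 3.46 to 1.35 with road filter 26 and from 2.86 to 0.65 with harbour filter 36, while the cyp1d1 lines stay near 0.

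The 5 genes were compared with each other by the log2 ratio of cyp1a to each other member within a pool, tested between extract and vehicle pools of a round with an exact two-sided permutation test. The 8 tests were adjusted together. In the second round the extract pools were those of road filters 26 and 28 and harbour filters 36 and 38, and the subway pools were not used. The ratio of cyp1a to cyp1b1 differed little between the 9 extract pools and the 3 vehicle pools of the first series (0.19 higher on the log2 scale, adjusted p = 0.509, exact permutation test) and between the 12 and 3 of the second round (-0.07, adjusted p = 0.673, exact permutation test). The ratio of cyp1a to cyp1d1 was higher with extract by 1.66 in the first series (adjusted p = 0.097, exact permutation test) and by 1.22 in the second round. The latter was the one difference to pass (p = 0.0044, the smallest this design can give, adjusted p = 0.0352, exact permutation test). The ratio was higher in each of these 12 road and harbour pools than in any vehicle pool. The pools are 3 repeats of each filter's extract, which the test took as separate units. Its p-value therefore does not measure the spread between extracts. Over the fits without 1 vehicle pool the difference stayed between 1.063 and 1.347. With 2 vehicle pools, where the smallest p the design can give is larger, it did not pass. Extract pools were not left out in turn.

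The ratio of cyp1a to cyp1c1 was higher with extract by 0.80 in the first series (adjusted p = 0.127, exact permutation test) and by 0.40 in the second round (adjusted p = 0.097, exact permutation test). For cyp1c2 the differences were 0.69 and 0.41 and did not pass. With harbour and road pools alone in the first series, a choice made with the low cyp1a of the airport pools in view, the differences were 1.105 for cyp1c1 and 2.30 for cyp1d1. Both reached the smallest p that 6 against 3 pools can give (p = 0.0238, adjusted over 4 tests p = 0.0476, exact permutation test). With all 9 extract pools neither ratio passed, so these calls rest on leaving the airport pools out.

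**Figure D4:**
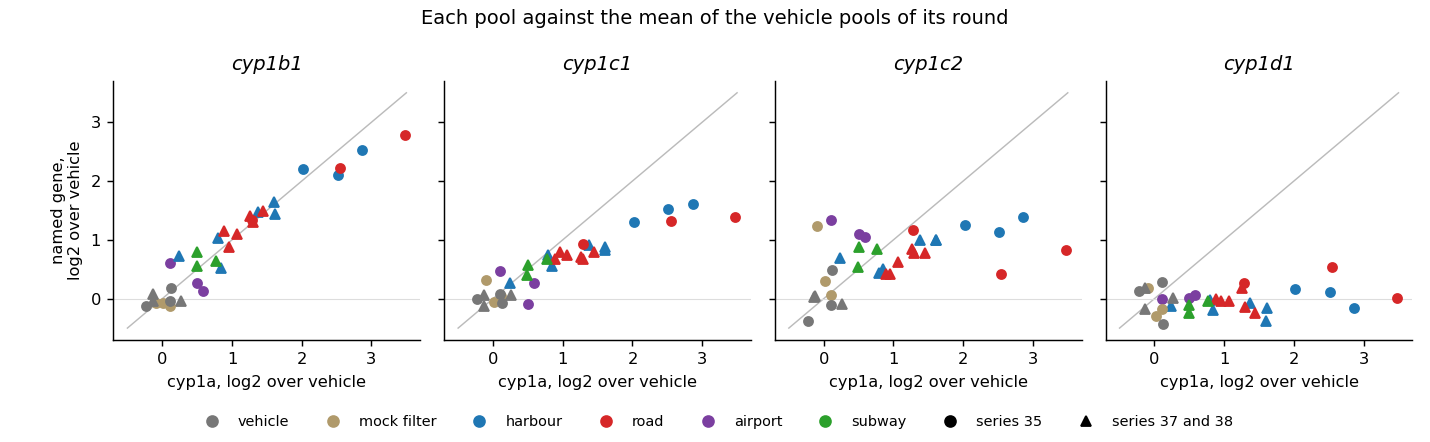
Each pool's log2 level over the mean vehicle level of its round for cyp1b1, cyp1c1, cyp1c2 and cyp1d1 (y axes) against cyp1a (x axis), with circles for series 35 and triangles for series 37 and 38 and a grey line where both are equal. cyp1b1 runs along the line (r = 0.961 over 33 pools), cyp1c1 rises less steeply (r = 0.926), cyp1c2 is scattered (r = 0.499) and cyp1d1 stays flat (r = 0.158).

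Over the 33 pools, after subtracting the vehicle mean of the round, the log2 level of cyp1a correlated with cyp1b1 at r = 0.961 and with cyp1c1 at r = 0.926. The correlation was 0.499 with cyp1c2 and 0.158 with cyp1d1. These values are a description, since pools share extracts, rounds and vehicle means. Among 15643 genes whose log2 CPM averaged 1 or more and whose symbol is not provisional, cyp1b1 and cyp1c1 were the most alike to cyp1a, followed by ugt1b1 (r = 0.784), a UDP-glucuronosyltransferase, mamdc2b (0.731) and sult6b1 (0.721), a sulfotransferase. ugt1b1 and mamdc2b also came next after the cyp1 genes for cyp1b1 (r = 0.748 and 0.727) and for cyp1c1 (r = 0.832 and 0.751). The fifth gene was c1qtnf5 (0.69) for cyp1b1 and sst2 (0.744), a somatostatin gene, for cyp1c1.

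cyp1c2 had other companions. The 5 genes most alike to it were nufip2 (r = 0.812), cluha (0.807), chchd4a (0.806), LONP1 (0.802) and jac9 (0.802), and no cyp1 gene was among them. LONP1 is a protease of the mitochondrial matrix and chchd4a belongs to the mitochondrial protein import system. For cyp1d1 the 5 were fam189b (r = 0.691), larp4ab (0.686), phospho1 (0.685), ppp1r3b (0.651) and gvin1l2 (0.638).

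The summed level of 4 skin keratin markers was lower than in vehicle in several groups where cyp1c2 rose, and also with mock filter and road filter 28. It was 12250 to 15100 CPM in the first vehicle group and 14480 to 15870 CPM in the second, and 5375 to 6113 CPM with airport, 7201 to 8249 CPM with road filter 26, 7084 to 9579 CPM with harbour filter 38 and 8922 to 9410 CPM with subway extract. In these 4 groups cyp1c2 rose. With road filter 28 and harbour filter 36, where cyp1c2 did not pass, the keratin sum was 12530 to 14040 and 12350 to 14720 CPM. The former range lay below vehicle and the latter overlapped it. Mock filter pools had 9775 to 10930 CPM, below vehicle, and cyp1c2 was not called there. In harbour pools of the first series the sum was 7653 to 11050 CPM and in road pools 10370 to 13690 CPM. The part of skin in the cyp1c2 result was not tested. The liver markers, summed, overlapped between vehicle (2333 to 3927 CPM) and harbour (3064 to 4091 CPM), road (2400 to 2711 CPM) and airport (2558 to 2967 CPM) in the first series. Red cell markers were higher in harbour pools of the first series (567 to 880 CPM) than in vehicle (202 to 403 CPM), and their part in the harbour results was not tested. The pancreas markers summed to 2544 to 3089 CPM in these harbour pools and to 1932 to 2432 CPM in vehicle. The heart markers summed to 61.1 to 76.2 CPM with harbour and 58.6 to 72.6 CPM with airport extracts, against 51.2 to 54.2 CPM in vehicle. Endothelium markers were above vehicle (112 to 130 CPM) with airport (135 to 154 CPM) and road extracts (131 to 140 CPM). Intestine markers were below vehicle (1280 to 1619 CPM) with airport extracts (865 to 1179 CPM) and also with mock filter extract (1168 to 1245 CPM). In the second round the intestine markers summed to 741 to 860 CPM with harbour filter 38 and 777 to 931 CPM with road filter 26, against 1030 to 1174 CPM in vehicle. The heart markers summed to 64.7 to 69.8 and 64.2 to 73.5 CPM with these filters and to 60.3 to 70.2 CPM with subway extract, against 43.9 to 54.34 CPM. The brain markers were lower, at 1032 to 1048 CPM with harbour filter 38, 968 to 1042 CPM with road filter 26 and 1050 to 1081 CPM with subway extract, against 1210 to 1227 CPM in vehicle. With road filter 28 they were also below vehicle, at 1130 to 1193 CPM. In the first series they were below vehicle (1253 to 1493 CPM) with mock filter extract (1182 to 1238 CPM). Red cell markers of the second round were also above vehicle (249 to 276 CPM) with harbour filter 38 (320 to 347 CPM) and road filter 26 (311 to 357 CPM). Over all 33 pools the sums ran from 12760 to 20460 CPM for muscle and 1267 to 1998 CPM for eye. Eye markers of the first series were below vehicle (1515 to 1658 CPM) with airport (1403 to 1486 CPM) and mock filter extracts (1267 to 1483 CPM). The part of these lists in the cyp1 results was not tested either.

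Other genes of the AhR pathway were taken from a list of 18, of which 16 were measured. They comprise receptors, partners, chaperones, repressors and known targets. With harbour extracts in the first series 4 of the 16 rose and 0 fell, where 2.6% of all genes tested rose, with a median log2 fold change of 0.08 over the list and 0.01 over all genes tested. With road extracts 2 rose and 0 fell (medians 0.06 and 0.00), where 0.122% of all genes tested rose. With airport extracts 5 rose and 1 fell (0.24 and -0.02), where 15.2% of all genes tested rose and 6623 genes passed in either direction, 3365 of them higher. The gene with the most constant rise was ahrra, the repressor that AhR itself induces. It went from 0.141 CPM in vehicle to 1.11 CPM with harbour, 1.04 CPM with road and 0.580 CPM with airport extracts. Its log2 fold changes were 2.97 ± 0.52, 2.88 ± 0.51 and 2.00 ± 0.54, with adjusted p of 0.00177, 0.00825 and 0.00583 in edgeR. Airport extracts thus raised ahrra without a passing change of cyp1a, at counts so low that the fold is imprecise.

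foxq1a, a transcription factor gene that responds to AhR in zebrafish jaw, rose with road (2.31 ± 0.32, adjusted p = 0.000321 in edgeR), harbour (1.40 ± 0.33, 0.0132) and airport extracts (1.25 ± 0.33, 0.00419). In the second round it passed with none of the 5 extracts, its differences running from -0.49 with subway extract to 0.57 with harbour filter 38. Its mean vehicle level was 6.54 CPM in the first series and 21.1 CPM in the second round. ahr2, the main zebrafish receptor for these responses, rose by 0.34 with airport extracts (adjusted p = 0.000717 in edgeR) and by the same amount, short of the threshold, with road extracts (adjusted p = 0.051 in edgeR). In the second round ahr2 rose by 0.37 with road filter 26, 0.43 with harbour filter 38 and 0.27 with subway extract (adjusted p of 0.000362, 0.000126 and 0.0306 in edgeR). In the second round ahrra rose with every filter, by 2.59 with road filter 26, 3.14 with road filter 28, 3.04 with harbour filter 38, 3.16 with harbour filter 36 and 2.04 with subway extract. Adjusted p lay between 0.000128 and 0.0303 in edgeR, and vehicle had 0.101 CPM. Of the 16 genes, 6 rose and 1 fell with road filter 26, 5 rose with harbour filter 38, 3 with subway extract and 1, ahrra, with each of road filter 28 and harbour filter 36, where none fell. Of all genes tested 11.8%, 10.5%, 2.3%, 0.0542% and 0.0407% rose in these comparisons, in the same order. With road filter 26, 5149 genes passed in either direction, 2621 of them higher. The list medians there ran from 0.01 to 0.25 and those over all genes tested from -0.02 to 0.01. With mock filter extract 0 of the 16 passed (median -0.03 against -0.01 over all genes tested).

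P450 enzymes need electrons from cytochrome P450 oxidoreductase (pora, porb), which cytochrome b5 (cyb5a, cyb5b) can supplement, and haem, whose synthesis starts with alas1. Of these 5 genes 3 rose and 1 fell with airport extracts, with a median log2 fold change of 0.79 against -0.02 over all genes tested, of which 15.2% rose. Of all genes tested 6623 passed in either direction there, 3365 of them higher. pora rose by 0.79 ± 0.12, porb by 0.81 ± 0.14 and cyb5b from 11.46 to 24.6 CPM, while alas1 changed by -0.76 ± 0.25, with adjusted p from 2.64e-06 to 0.0232 in edgeR. The same 3 genes, pora, porb and cyb5b, rose with road filter 26 (list median 0.77), harbour filter 38 (0.73) and subway extract (0.43), where 11.8%, 10.5% and 2.3% of all genes tested rose. With harbour extracts in the first series cyb5b rose by 0.70 and alas1 changed by -0.97. In that harbour comparison 2.6% of all genes tested rose, and 1016 genes passed in either direction, 575 of them higher. With road extracts, with road filter 28 and with harbour filter 36, 0 of the 5 passed, where 0.122%, 0.0542% and 0.0407% of all genes tested rose. The rise of pora, porb and cyb5b thus stood beside raised cyp1a with road filter 26 and harbour filter 38. It stood beside a cyp1a difference short of the threshold with airport and subway extracts. In the first series cyp1a was highest with road and harbour extracts, where none and cyb5b alone of these 3 were called. The road comparison called few genes of any kind, and its list median was 0.17, so the missing calls there say little. A link between these genes and cyp1a was not tested.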

How the data were processed

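Embryo pools were sequenced as stranded poly-A libraries, per the labels' protocols. The deposited gene table gives whole, unnormalised read counts for each gene in each library. Its companion, the deposited quality table, gives percent values for unique, unmapped and duplicate reads. The submitters' processing notes name CASAVA, BWA and GRCz11. How reads were counted, with which strand setting and annotation, is not given in the sources used here.

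The gene table itself named 17766 genes, a separate table of IDs named 5860 more, and 1806 stayed unnamed. filterByExpr kept 22124 genes. After TMM scaling, edgeR 4.0.16 (R 4.3.3) was run with its quasi-likelihood test on 1 mean for each of 11 groups, with 18 contrasts. A fit with 1 coefficient for each filter and round tested the same filter between rounds. In that fit filterByExpr kept 22653 genes. P-values were adjusted by Benjamini-Hochberg over all genes tested. Log2 CPM had a prior count of 2. Ratios were tested with permutations in scipy 1.17.1. The scripts were tested on simulated data.

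The 5 members, the pathway and marker lists and the named-gene rule (all members, up to 4 genes of each list by adjusted p, and the 5 genes most alike to each member) were chosen with earlier results of these data known. No 2 libraries of a group were copies, since the lowest chi-square per degree of freedom was 4.56 over 33 pairs. Intervals are 95%. Alternatives were DESeq2 1.42.0, its size factors, no filter on low counts, fits of the groups compared alone, a fit of all pools of a site with series as covariate, and fits that left out pools.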

Additional observations from a re-analysis of the deposited data

Results flagged for a closer look

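The change of cyp1a with the same filter was smaller in the second round, and the difference passed in edgeR with adjustment over all genes tested, with the spread taken from the replicated groups because each first-series value is 1 pool. The change against vehicle in the second round minus that in the first series was -2.105 with road filter 26, -1.579 with road filter 28, -2.209 with harbour filter 36 and -0.955 with harbour filter 38 on the log2 scale. For cyp1b1 the differences that passed were -1.351 with filter 26 and -1.761 with filter 36. For cyp1c1 they were -1.067 with filter 36 and -0.629 with filter 38. All 8 differences that passed were lower in the second round. With filters 26 and 28 cyp1c1 differed by -0.632 and -0.59, short of the threshold. Vehicle group and sequencing round differ between the rounds, with dose and extract preparation not known, so that these cannot be told apart.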

How the results depend on the processing

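Across the alternatives, 911 of 965 log2 changes of single members kept their side of the threshold, 34 lost and 20 gained a call, and 0 called changes turned direction. Numbers of members called are given here, and the share of all genes called in each of these fits is not. With only the groups compared in the fit they went from 3 to 0 for road against vehicle and for road against mock filter, from 1 to 3 for road filter 28, from 2 to 4 for subway and from 0 to 2 for road filter 26 against 28. DESeq2 gave 2 for road filter 28 and 1 for airport against mock filter. The site fit gave 1 for subway and 4 for road against vehicle, where cyp1c2 also passed (0.73, adjusted p = 0.0355 in edgeR). Without vehicle pool 3 and mock filter pools 2 and 3, mock filter against vehicle gave 1, from a lone mock pool assumed to vary like the other groups. Leaving out 1 pool gave 0 to 1 for mock filter, 1 to 2 for airport against vehicle, 0 for road filter 28, 0 to 1 for subway, 0 to 1 for airport against mock filter, 0 to 2 for harbour filter 36 against 38, 3 to 4 for harbour against mock filter and 2 to 3 for filter 36 between rounds. Fits without 1 pool test with fewer libraries.

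Same-numbered pools of harbour filters 36 and 38 correlated in their deviations at 0.093 to 0.16, and pools of different numbers at -0.085 to -0.019. Pools were numbered by their order within a filter. The series 38 pool of harbour filter 36 was thus matched with a pool of another title number. Deviations were from the mean of each filter's pools, so higher values for same numbers bring lower ones for different numbers. For road filters 26 and 28 these ranges were -0.004 to 0.006 and -0.024 to 0.023. For road filter 26 and harbour filter 38 they were 0.012 to 0.159 and -0.15 to 0.097. The filter pairs thus differed, what the title numbers mark is not known, and the main fit did not take same-numbered pools as pairs. With the replicate block, 2 members passed for road filter 26 against 28, 4 for harbour filter 36 against 38 and 0 for road filter 26 against harbour filter 38. Over all alternatives the number of all genes called ran up to 6380, 5221 and 163 in these comparisons, against 3829, 3120 and 3 in the main fit. The cyp1a to cyp1d1 ratio difference of the second round ran from 1.063 to 1.347 over the fits without 1 vehicle pool. Extract pools were not left out in turn for the ratios. With harbour and road pools only, chosen after the data were seen, the first-series differences were 1.105 for cyp1c1 and 2.30 for cyp1d1. All-gene counts of calls moved more: 11 to 1482 for harbour against vehicle (1016 as reported), 0 to 91 for road (28), 2466 to 6955 for airport (6623), 0 to 1511 for mock filter (7), 3 to 45 for road filter 28 (12), 4 to 38 for harbour filter 36 (11) and 92 to 3249 for subway (968). Where not named, the cause was not tested. The lowest member count in a pool was 30, for cyp1c2, which limits its precision.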
